A study of Mus musculus with 9 samples.

Results

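The genes described here are those of the mouse major histocompatibility complex (MHC) and of antigen presentation. They were chosen by name, with earlier results of these data known. The set holds the 45 genes of the count table whose names begin with H2-. Added to these were Cd74, B2m, Tap1, Tap2, Tapbp, Ciita, Nlrc5, Psmb8, Psmb9 and Psmb10, which makes 55 of 56748 genes. Polyadenylated RNA was sequenced in 9 libraries of cortical cells. The mice were wild type, of strain C57BL/6J and 2 to 3 months old, and the libraries form 3 groups of 3 replicates that the design text of the series calls biological. Uninjured cortex and injured cortex were cells freshly dissociated from intact tissue and from the core of a lancet stab wound, sorted to remove neurons (cells positive for CD171 and negative for ACSA-2), debris and dead cells. Reactive cultures came from lesion cores kept in DMEM/F12 with B27 and 10% fetal bovine serum, and the whole culture was taken, unsorted. The labels place dissection of the lesion 1 day after injury and give 6 days in culture, whereas the design text gives 3 days for injured cortex, and 24 h followed by 8 days for the cultures, so the times are given here as they stand. All groups are mixtures of cells, so that more or fewer cells of a type and more or less RNA per cell cannot be told apart.

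MHC class I molecules, made of a heavy chain and beta-2 microglobulin, display peptides from inside the cell to CD8 T cells. The peptides are cut by the proteasome, whose catalytic subunits can be exchanged for those of the immunoproteasome, and are carried into the endoplasmic reticulum by the TAP transporter. MHC class II molecules display peptides from endosomes to CD4 T cells and are made mainly by dendritic cells, B cells and activated macrophages. In healthy brain the microglia, the resident macrophages, are known for little class II.

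Total counts per library ran from 12205049 to 24302770. Within a group the libraries correlated across genes at a Pearson's r of 0.939 to 0.984, and between groups at 0.738 to 0.934. Levels are given as CPM, counts scaled to a common library size. Injured replicate 3 had the lowest level of most of the genes below within its group. Uninjured replicates 2 and 3 stood apart in another way: the sum over 1770 receptor genes of the olfactory and vomeronasal families was 175 and 146 CPM of their library totals, against 14.3 to 44.0 CPM in the other 7 libraries. Neuronal markers summed to 28.97 to 39.5 CPM in uninjured cortex and 22.4 to 53.2 CPM after injury. Markers of astrocytes summed to 3763 to 6750.2 CPM in uninjured cortex, 2111 to 3625 CPM in injured cortex and 83.3 to 147 CPM in the cultures, which the labels describe as ACSA-2 positive. The pan-leukocyte markers Ptprc, Laptm5 and Coro1a were present in every library.

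Of the 55 genes, 35 had enough counts to be tested and 20 did not. Levels carry TMM scaling (trimmed mean of M values), and changes are log2 fold changes ± SE from edgeR's quasi-likelihood test, called at a Benjamini-Hochberg adjusted p under 0.05 over 18093 genes. After injury 23 of the 35 genes rose and 0 fell (0 also by DESeq2 and by voom, and 29 higher and 0 lower at an unadjusted p under 0.05, which 26.2% of all genes passed), where 8.99% of all genes tested were called higher, 2.87% lower and 11.9% in either direction; the median log2 fold change of the 35 was 1.84, against 0.0012 for all genes tested. In cultures 24 were lower and 1 was higher than in injured cortex, where 30.1% of all genes were lower, 20% higher and 50.1% called in either direction, with a median of -2.17 against -0.19. Groups that did not overlap were found in 22 genes higher after injury, where 16.1% of all genes had this and 12.5% the opposite, and in 22 lower and 1 higher in cultures than in injured cortex, where 33.8% and 25.8% of all genes had them. Compared with uninjured cortex 14 were lower and 6 higher in cultures, where 33.1% of all genes were lower, 27.5% higher and 60.5% called, with a median of -0.62 against -0.17; here 15 lay wholly lower and 10 wholly higher, against 37.1% and 32.1% of all genes. A gene that passed the filter only through the group where it is high had to differ, which bears on sparse genes such as H2-Q10, H2-M2 and Ciita, so the 35 do not stand for all 55. Higher genes made up 75.8%, 39.9% and 45.4% of the calls over all genes in the 3 comparisons, and 66.1%, 29.8% and 32.1% with library sizes that leave out the mitochondrial and the 100 most abundant genes. The count of 23 was 14 without injured replicate 1, 14 without uninjured replicate 2, 14 without uninjured replicate 3, and 6 with uninjured replicates 2 and 3 left out together.

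The calls formed a few patterns. Genes that rose after injury and were lower in cultures than in both tissues numbered 7. They were Cd74, H2-Aa, H2-Ab1, H2-Eb1, H2-DMb2, Ciita and H2-Q10. Another 7 were lower in cultures than in both tissues but not called after injury: H2-DMa, H2-Oa, H2-Ob, H2-Eb2, H2-K2, H2-Q4 and H2-T24. A further 8 rose after injury, were lower in cultures than in injured cortex and were not called between cultures and uninjured cortex: H2-K1, H2-Q5, H2-Q7, H2-DMb1, Tap1, Tap2, Psmb9 and Psmb10. H2-D1, H2-T22, H2-T10 and H2-T-ps were higher than uninjured cortex in both injured cortex and cultures, and were not called between these 2. Nlrc5 was highest in injured cortex, intermediate in cultures and lowest in uninjured cortex, with all 3 differences called. The comparisons share their libraries, so these patterns are counts and not independent tests.

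Many calls rested on uninjured replicates 2 and 3. With both left out, 17 of the 23 rises lost their call, and the 6 that kept it were Cd74, H2-Aa, H2-Ab1, H2-Eb1, Ciita and Tap1. Between cultures and uninjured cortex 9 calls ended: H2-Ab1 (-1.19, adjusted p = 0.124 in edgeR's test), H2-D1 (1.61, 0.105), H2-T22 (1.27, 0.12), H2-T10 (1.01, 0.395), H2-T24 (-1.24, 0.0864), H2-Q4 (-0.46, 0.692), H2-Eb2, Ciita and Nlrc5. In these 2 comparisons each other setting tried ended fewer calls. The rises of H2-DMb1, H2-T23, Psmb10 and Tap2 were lost under each of the other scalings, and those of H2-D1, H2-DMb1, H2-M3, H2-T23, Psmb8, Psmb9, Psmb10 and Tap2 in a fit of the 2 groups alone. With voom the calls of Ciita, H2-Q10, H2-Q4, H2-T10 and H2-T24 between cultures and uninjured cortex ended, as did those of H2-Q6 and Tap2 between cultures and injured cortex.

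**Figure D1:**
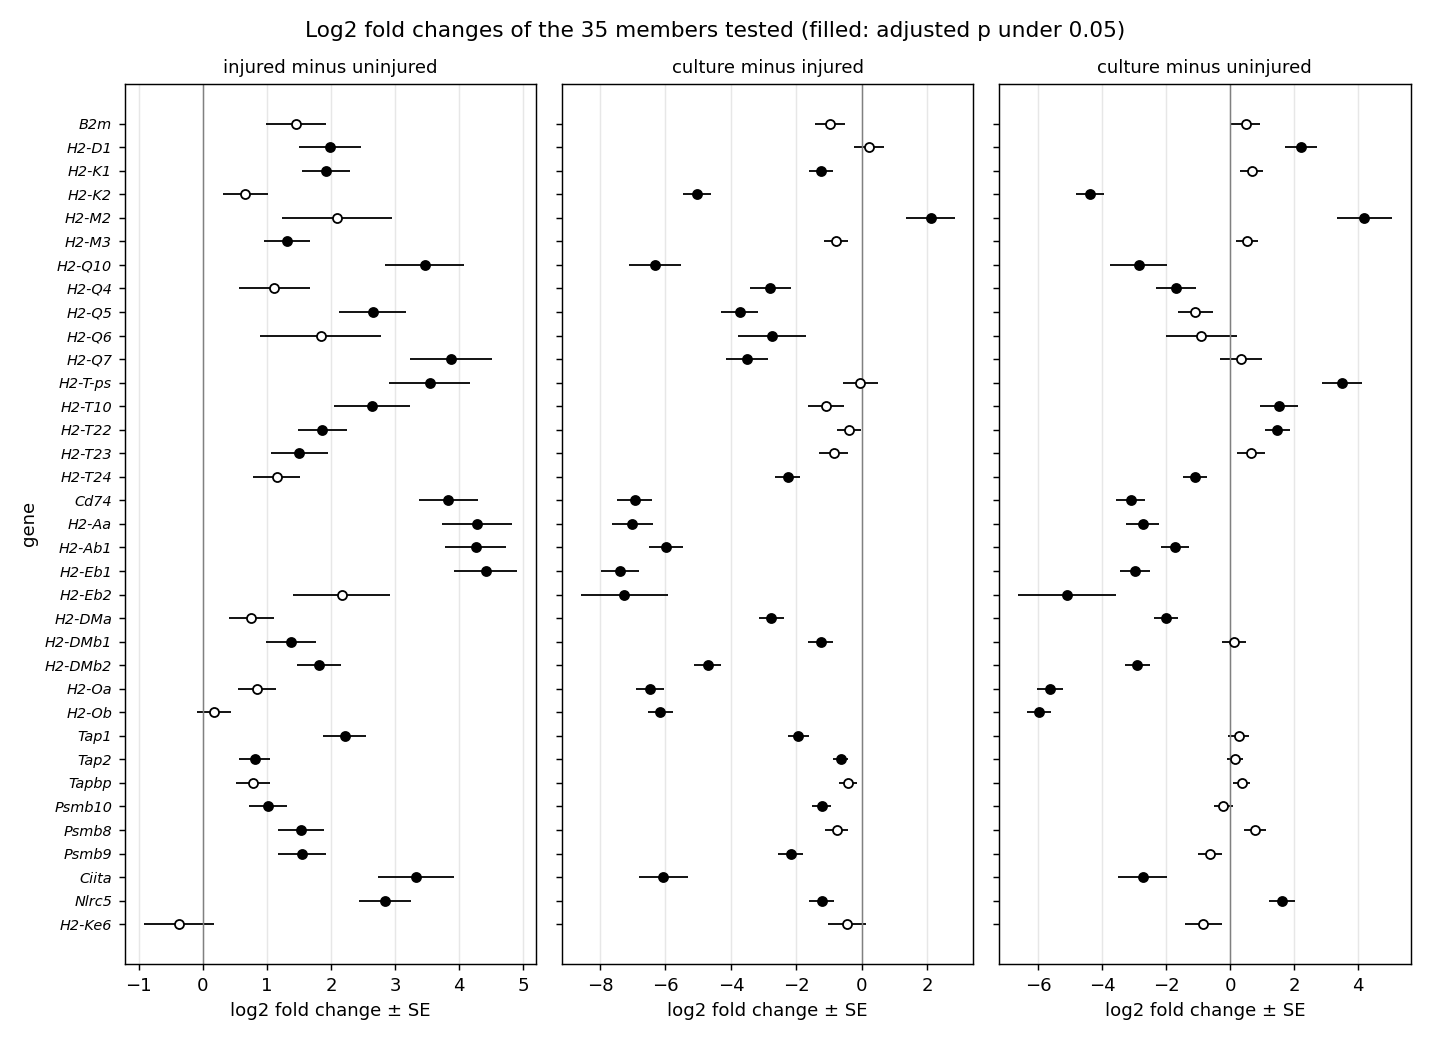
Log2 fold changes ± SE (horizontal axes) of the 35 genes tested (rows) in the 3 comparisons, with filled points at an adjusted p under 0.05 in edgeR's test. In injured against uninjured cortex 23 points are filled, all to the right of 0, and in cultures against injured cortex 24 filled points lie to the left.

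The class II chains and Cd74 had the largest rises among the abundant genes. H2-Aa, H2-Ab1 and H2-Eb1 encode the chains of the I-A and I-E molecules, and Cd74 the invariant chain, which fills the class II groove until the molecule reaches endosomes. Cd74 was at 230.3, 231 and 287 CPM in uninjured replicates 1, 2 and 3, at 5512, 3542 and 1569 CPM in injured cortex and at 20.9, 25.9 and 39.99 CPM in the cultures. The 3 groups did not overlap, and the lowest injured library was above every uninjured one. The log2 fold change was 3.83 ± 0.46 after injury (adjusted p = 0.000259 in edgeR's test), -6.94 ± 0.53 in cultures against injured cortex (1.04e-06) and -3.11 ± 0.45 in cultures against uninjured cortex (9.7e-05). In folds, Cd74 was 14.2-fold higher after injury and 8.62-fold lower in cultures than in uninjured cortex.

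H2-Ab1, the I-A beta chain, stood at 67.2, 96.04 and 132 CPM in uninjured cortex. It stood at 2868, 1927 and 845 CPM in injured cortex and at 20.4, 29.3 and 39.4 CPM in cultures, again with no overlap. Its log2 fold changes were 4.26 ± 0.48 after injury, -5.99 ± 0.52 in cultures against injured cortex and -1.73 ± 0.43 against uninjured cortex. H2-Aa, the I-A alpha chain, ran the same course, from 42.97, 83.5 and 72.2 CPM in uninjured to 2120.2, 1218 and 522 CPM in injured cortex and 5.53, 9.31 and 15.3 CPM in cultures. The lowest injured library of H2-Aa was above the highest uninjured one, and the highest culture below the lowest uninjured library; the changes were 4.28 ± 0.54, -7.01 ± 0.62 and -2.73 ± 0.51. H2-Eb1, the I-E beta chain, was at 26.4, 54.8 and 40.7 CPM in uninjured cortex, 1430.3, 707 and 469.9 CPM after injury and 2.95, 4.94 and 7.75 CPM in cultures. Its groups did not overlap either, and its changes were 4.42 ± 0.49, -7.39 ± 0.57 and -2.97 ± 0.48. Among the injured libraries replicate 1 was the highest and replicate 3 the lowest for each of these chains and for Cd74. These 4 genes kept all calls in every setting tried for injured against uninjured cortex, the fit with uninjured replicates 2 and 3 left out included.

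The partner of H2-Eb1 was nearly absent. H2-Ea, the I-E alpha chain, which carries a promoter deletion in mice of the b haplotype such as C57BL/6J, had 8 counts in all injured libraries together and 3 in the uninjured ones. H2-Eb2, a sparse second beta chain gene, had counts of 5, 3 and 4 in uninjured and 39, 10 and 18 in injured cortex, a change of 2.17 ± 0.76 that was not called (adjusted p = 0.0972 in edgeR's test). It had 0 counts in the cultures, so it was at least 14.9-fold lower there than in injured cortex, taking 3 counts over the group as the floor, and at least 3.28-fold lower than in uninjured cortex. Per kilobase of exon, Cd74 was at 148 CPM in uninjured cortex and 2109 CPM in injured cortex, H2-Ab1 at 38.3 and 732, and H2-Aa at 17.4 and 339.

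**Figure D2:**
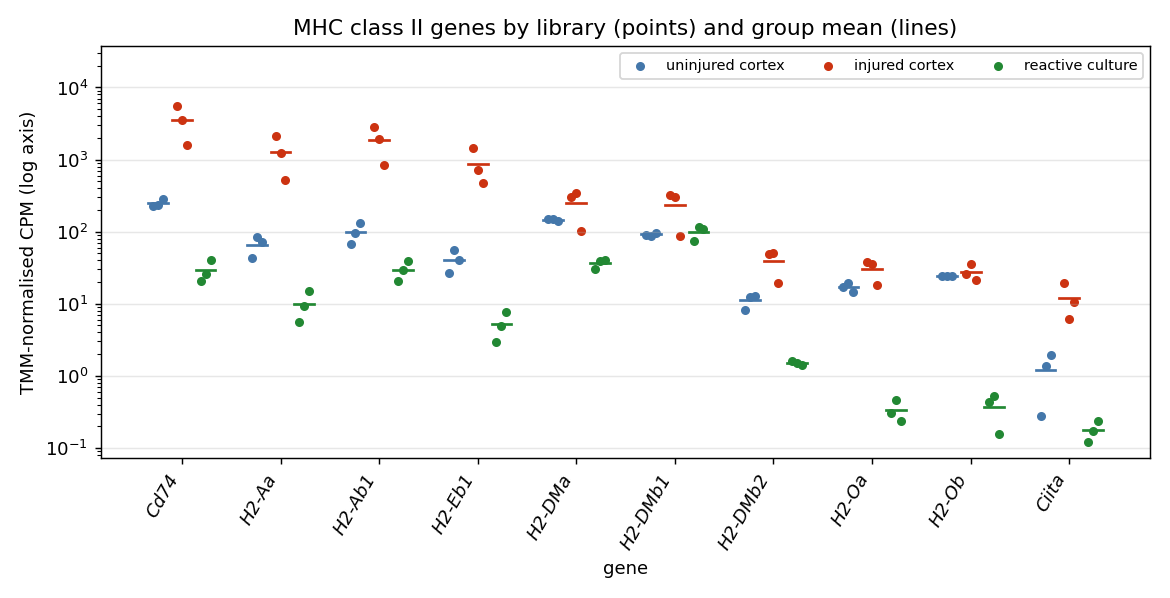
TMM-normalised CPM (vertical axis, log scale) of 10 class II genes in each library, with blue points for uninjured cortex, red for injured cortex and green for cultures, and lines at the group means. Cd74, H2-Aa, H2-Ab1 and H2-Eb1 are highest in all injured libraries, H2-Ob is level between the tissues, and H2-DMb1 alone overlaps between cultures and uninjured cortex.

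The promoters of 2 class II chains are shown because CIITA, the class II transactivator described below, acts through them. The X box (split into X1 and X2) and the Y box bind the RFX, CREB and NF-Y proteins, and CIITA is recruited to that complex, as is NLRC5 at class I promoters. The sequences are the 250 bases before the RefSeq start in mouse build GRCm38.p6, for H2-Aa chr17:34287824-34288073, minus strand, and for H2-Eb1 chr17:34305617-34305866, plus strand, 5′ to 3′, with motif matches in capitals.
H2-Aa: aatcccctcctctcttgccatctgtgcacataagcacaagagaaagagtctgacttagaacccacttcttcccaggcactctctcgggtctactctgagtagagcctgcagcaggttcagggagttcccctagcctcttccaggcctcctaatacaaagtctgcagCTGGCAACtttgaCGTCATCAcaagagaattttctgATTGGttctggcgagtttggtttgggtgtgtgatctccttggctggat
H2-Eb1: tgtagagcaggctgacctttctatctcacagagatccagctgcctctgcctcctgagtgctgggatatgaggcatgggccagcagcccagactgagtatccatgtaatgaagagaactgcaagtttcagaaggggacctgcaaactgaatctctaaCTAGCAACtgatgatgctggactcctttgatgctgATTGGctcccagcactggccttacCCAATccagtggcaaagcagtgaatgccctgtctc
The letters searched, on both strands, were CTNGNAAC for the X1 box, TGNTGACG for the X2 box and ATTGG for the Y box, and they were chosen after the promoters had been seen. The H2-Aa promoter held an X1 match at -84 to -77, an X2 match on the minus strand at -71 to -64 and a Y match at -48 to -44, counted from the start. The H2-Eb1 promoter held an X1 match at -94 to -87, Y matches at -59 to -55 and, on the minus strand, at -35 to -31, and no X2 match with these letters. Among 8 class II promoters with a RefSeq entry, 5 held the X1 letters, 1 the X2 letters and 7 the Y letters. Of 27025 promoters of the same length, 11%, 1.86% and 34.5% held them. In H2-Eb2 the X1 match, at -12 to -5, lay nearer the start than the Y match, at -100 to -96. This is the reverse of the order in H2-Aa, H2-Eb1, H2-DMb1 and H2-Ob. None of the matches overlapped another, and a match is a description of the letters and not a bound site.

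The DM and DO genes, which edit the peptides in class II molecules, changed less after injury and in different ways. H2-DMa and a beta chain from H2-DMb1 or H2-DMb2 form DM, which removes the invariant chain remnant. H2-Oa and H2-Ob form DO, which restrains DM and is known mainly from B cells. H2-DMb2 was at 8.23, 12.6 and 12.9 CPM in uninjured cortex, 48.4, 51.05 and 19.2 CPM in injured cortex and 1.60, 1.49 and 1.41 CPM in cultures, with no overlap. It rose by 1.82 ± 0.34 after injury and was lower in cultures by -4.71 against injured and -2.89 against uninjured cortex. H2-DMa was not called after injury (0.76 ± 0.35, adjusted p = 0.196 in edgeR's test), with injured libraries at 302, 339.6 and 101 CPM on both sides of the uninjured ones, at 149, 149.7 and 141. In cultures H2-DMa was at 30.3, 38.98 and 40.4 CPM, below both tissues (-2.76 ± 0.37 and -2.00 ± 0.36).

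H2-Oa was at 17.1, 19.7 and 14.6 CPM in uninjured cortex and 38.4, 36.1 and 18 CPM after injury (0.84 ± 0.30, adjusted p = 0.0866 in edgeR's test). H2-Ob was at 24.2, 24.5 and 24.6 CPM in uninjured cortex, against 25.6, 35.8 and 21.4 CPM after injury, groups that overlapped. In cultures H2-Oa was at 0.307, 0.460 and 0.235 CPM and H2-Ob at 0.430, 0.517 and 0.157 CPM, the lowest levels of the DM and DO genes. They were lower than injured cortex by -6.47 ± 0.42 and -6.15 ± 0.37. Markers of B cells moved with this pair: their sum was 402, 283 and 274 CPM in uninjured cortex, 496, 670.2 and 278 CPM in injured cortex and 4.18, 5.46 and 1.96 CPM in cultures. Of the 7 B cell markers 6 were tested, 2 of them rose after injury and 6 of 6 were lower in cultures than in both tissues. Markers of microglia (10 of 10), astrocytes (7 of 7) and oligodendrocytes (6 of 6) were also lower in cultures than in both tissues. Over all genes 30.1% were lower than in injured and 33.1% lower than in uninjured cortex. The part of any of these cell types in the DO result was not tested.

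H2-DMb1, the paralog of H2-DMb2, took a course of its own. It was at 90.97, 86.1 and 97.4 CPM in uninjured cortex, 318, 304 and 88.3 CPM in injured cortex and 73.5, 116 and 108 CPM in cultures. Injured replicate 3 lay within the uninjured range, and the cultures overlapped with the uninjured libraries. The rise after injury was 1.37 ± 0.39 (adjusted p = 0.0387 in edgeR's test), and it lost its call when any 1 of 8 libraries was left out, the exception being injured replicate 3 (adjusted p up to 0.174, without injured replicate 1). The culture against injured difference of -1.26 ± 0.39 was lost when culture replicate 1 or injured replicates 1 or 2 were dropped singly (adjusted p of 0.0819, 0.0715 and 0.0542). Against uninjured cortex it was 0.12 ± 0.38. Inside each library the count of H2-DMb1 over that of H2-DMb2 was 11.1, 6.86 and 7.56 in uninjured cortex, 6.57, 5.95 and 4.59 in injured cortex, and 46.0, 77.8 and 76.4 in cultures. The log2 ratio was higher in cultures by 3.52 than in injured and by 2.97 than in uninjured cortex (exact two-sided permutation test, p = 0.1 each, the smallest that 3 against 3 allows). This ratio was chosen after its values were seen. The transcripts are similar: 11.3% of the 100-base windows of H2-DMb1 also occurred in another gene, most often H2-DMb2, so the authors' counting could have moved reads between the pair.

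The 2 regulators both rose after injury, and their differences between cultures and uninjured cortex had opposite signs. Ciita, the class II transactivator, had CPM of 0.276, 1.35 and 1.95 in uninjured cortex, 19.2, 6.23 and 10.6 in injured cortex and 0.123, 0.172 and 0.235 in cultures. All groups were separate, and the cultures held counts of only 2, 3 and 3. Ciita rose by 3.33 ± 0.59 after injury and was lower in cultures than in injured (-6.06 ± 0.75) and uninjured cortex (-2.73 ± 0.76, adjusted p = 0.00853 in edgeR's test). The difference from uninjured cortex rests on uninjured replicates 2 and 3, which had counts of 30 and 32 against 5 in replicate 1: without them it was -0.66 (adjusted p = 0.609), and with voom it was -2.22 (0.102). Neither was called.

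Nlrc5, the class I transactivator, was at 1.93, 1.57 and 1.71 CPM in uninjured cortex, 20.6, 6.81 and 10.2 CPM in injured cortex and 5.65, 4.83 and 5.56 CPM in cultures. Every culture lay above every uninjured library and below every injured one. Its changes were 2.85 ± 0.41 after injury, -1.23 ± 0.38 in cultures against injured cortex and 1.62 ± 0.40 against uninjured cortex (adjusted p = 0.000803, 0.0174 and 0.0041 in edgeR's test). The difference between cultures and injured cortex lost its call without culture replicate 2 (adjusted p = 0.0618), and also without injured replicate 1, where it was -0.66 (0.128). With uninjured replicates 2 and 3 left out, Nlrc5 was no longer called after injury (2.68, adjusted p = 0.0682) or between cultures and uninjured cortex (1.46, 0.0951).

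The classical heavy chains of class I rose after injury, and neither was called lower in cultures than in uninjured cortex. H2-D1 and H2-K1 encode the heavy chains of the D and K molecules, and B2m their common light chain. H2-D1 was at 1064, 538 and 520.4 CPM in uninjured cortex, 3760.2, 3629 and 1039 CPM in injured cortex and 2545, 3449 and 3841 CPM in cultures. Injured replicate 3 lay within the uninjured range, and the cultures lay above every uninjured library. H2-D1 rose by 1.99 ± 0.49 after injury (adjusted p = 0.0194 in edgeR's test), a call lost without injured replicate 1 (0.0903), uninjured replicate 2 (0.0961) or uninjured replicate 3 (0.0838). It was 2.21 ± 0.49 higher in cultures than in uninjured cortex (adjusted p = 0.00208) and was not called against injured cortex (0.22 ± 0.47, and -0.17 without injured replicate 3).

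H2-K1 was at 397, 294 and 257 CPM in uninjured cortex, 1759.8, 1240.5 and 586 CPM in injured cortex and 425, 510.0 and 587 CPM in cultures. All injured libraries lay above the uninjured ones, and the highest culture was just above injured replicate 3. It rose by 1.92 ± 0.37 after injury (adjusted p = 0.00552 in edgeR's test) and was lower in cultures than in injured cortex by -1.24 ± 0.36 (0.0143). That call was lost without culture replicate 1 (adjusted p = 0.066), culture replicate 2 (0.051) or injured replicate 1 (0.0775). Against uninjured cortex the cultures differed by 0.68 ± 0.36 (adjusted p = 0.119), with every culture above every uninjured library.

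H2-D1 and H2-K1 therefore parted in the cultures. The count of H2-D1 over that of H2-K1 was 2.68, 1.83 and 2.02 in uninjured cortex, 2.14, 2.93 and 1.77 in injured cortex, and 5.99, 6.76 and 6.55 in cultures. Its log2 difference was 0.05 after injury (exact two-sided permutation p = 0.8), 1.53 for cultures over injured cortex and 1.58 for cultures over uninjured cortex (p = 0.1 each, the smallest that 3 against 3 allows). A ratio inside a library does not depend on the scaling between libraries. This ratio too was chosen after its values were seen, and 3.59% of the 100-base windows of H2-D1 and 0.957% of those of H2-K1 also occurred in other genes.

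B2m was at 1955, 2285 and 1178 CPM in uninjured cortex, 7917, 4973 and 1897 CPM in injured cortex and 2419, 2742 and 2439.9 CPM in cultures. Injured replicates 1 and 2 were above, and replicate 3 within, the uninjured range. The difference of 1.45 ± 0.47 was not called (adjusted p = 0.0649 in edgeR's test), and was called without injured replicate 3 (1.82, adjusted p = 0.00117). The cultures differed by -0.96 ± 0.46 from injured and by 0.49 ± 0.46 from uninjured cortex, neither called. Every culture lay above every uninjured library. Per kilobase of exon B2m was the most abundant of these genes, at 2100.4 CPM in uninjured cortex, 5731 in injured cortex and 2946 in cultures, where H2-D1 was at 274, 1089 and 1271 and H2-K1 at 108, 407 and 173.

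The promoters of the 3 genes are shown because the heavy chains, which parted in culture, share most letters searched below with the light chain. They are again 250 bases before the RefSeq start in GRCm38.p6, 5′ to 3′, for H2-D1 chr17:35262844-35263093, plus strand, for H2-K1 chr17:34000348-34000597, minus strand, and for B2m chr2:122147437-122147686, plus strand, with matches in capitals.
H2-D1: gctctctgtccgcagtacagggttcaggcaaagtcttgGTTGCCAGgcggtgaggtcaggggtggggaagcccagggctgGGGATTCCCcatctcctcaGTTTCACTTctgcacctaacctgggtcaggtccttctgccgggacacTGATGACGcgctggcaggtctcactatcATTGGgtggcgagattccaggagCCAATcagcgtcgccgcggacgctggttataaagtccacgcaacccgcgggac
H2-K1: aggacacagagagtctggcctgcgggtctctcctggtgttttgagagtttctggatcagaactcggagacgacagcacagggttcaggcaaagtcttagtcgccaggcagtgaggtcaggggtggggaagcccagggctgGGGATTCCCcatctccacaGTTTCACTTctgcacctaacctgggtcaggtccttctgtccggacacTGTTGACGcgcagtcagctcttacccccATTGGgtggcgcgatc
B2m: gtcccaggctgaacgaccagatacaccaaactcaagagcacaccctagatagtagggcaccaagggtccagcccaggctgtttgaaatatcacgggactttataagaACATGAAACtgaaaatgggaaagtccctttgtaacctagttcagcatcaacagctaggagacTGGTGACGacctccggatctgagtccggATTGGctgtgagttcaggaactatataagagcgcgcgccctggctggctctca
Besides the X1, X2 and Y letters above, 2 elements were searched on both strands. These were GTTTCANNT, the interferon regulatory factor (IRF) element, and GGGATTCCC, a spelling of the kappaB site. Both were likewise chosen after the promoters had been seen. H2-D1 held the kappaB letters at -170 to -162, the IRF letters at -151 to -143, the X2 letters at -104 to -97, and Y letters at -76 to -72 and, on the minus strand, at -53 to -49. H2-D1 also held the X1 letters on the minus strand at -212 to -205. H2-K1 held the kappaB letters at -110 to -102 and the IRF letters at -91 to -83. Its X2 letters lay at -44 to -37 and its Y letters at -16 to -12. Positions count from each gene's RefSeq start, and the H2-K1 window ends soon after its Y letters. A later Y match like that of H2-D1 could therefore not be seen in H2-K1. B2m held the IRF letters on the minus strand at -143 to -135 and the X2 letters at -81 to -74. Its Y letters lay at -53 to -49. B2m did not hold GGGATTCCC, and other spellings of the kappaB site were not searched. Among 24 class I promoters with a RefSeq entry, 11 held the IRF letters, 5 the X2 letters, 4 the kappaB letters and 21 the Y letters, and of the 8 class II promoters 0 held the IRF or the kappaB letters. Of all 27025 promoters 3.23% held the IRF letters and 0.311% the kappaB letters. Paralogous promoters share descent, so these counts are not independent.

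**Figure D3:**
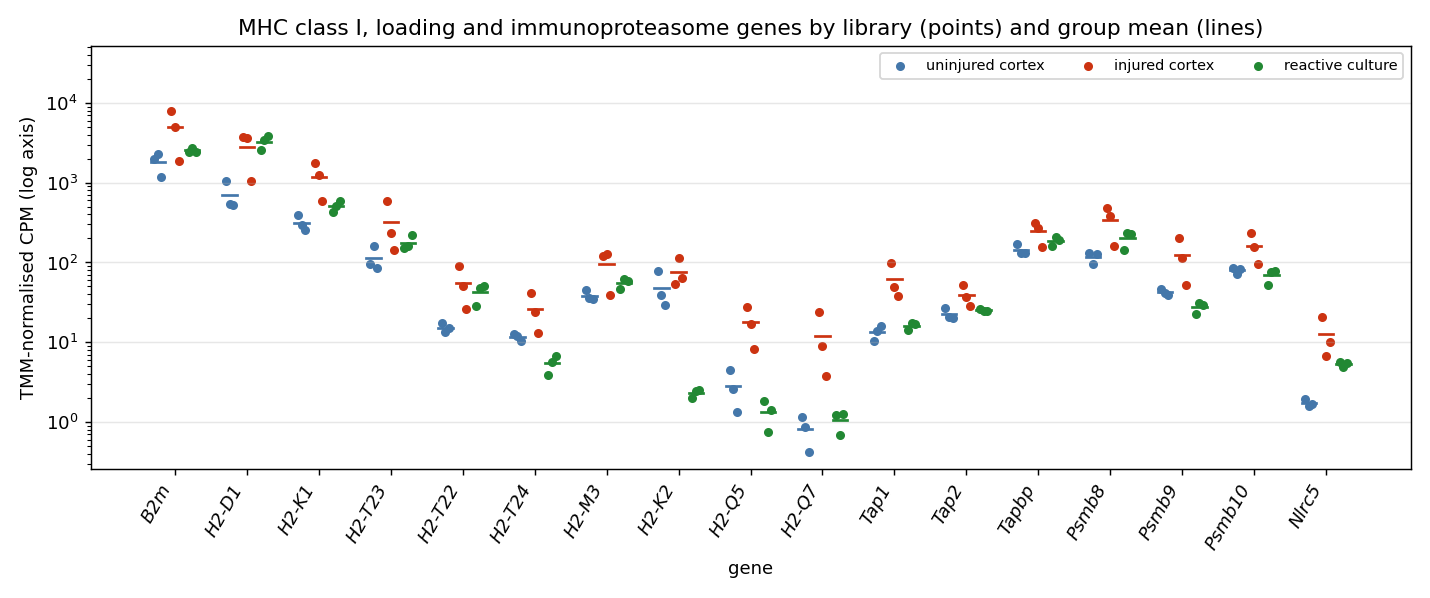
TMM-normalised CPM (vertical axis, log scale) of 17 class I, peptide loading, immunoproteasome and regulator genes in each library, with blue points for uninjured cortex, red for injured cortex and green for cultures, and lines at the group means. The cultures lie wholly above uninjured cortex for B2m, H2-D1, H2-K1, H2-T22, H2-M3, Psmb8 and Nlrc5 and wholly below it for H2-K2, H2-T24 and Psmb9.

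The nonclassical class I genes, which include ligands of natural killer receptors, rose in 8 of 13 tested after injury, where 8.99% of all genes did. Of the 13, 4 were higher and 4 lower in cultures than in uninjured cortex, shares near the 27.5% and 33.1% over all genes. H2-T23 encodes Qa-1, the ligand of the CD94-NKG2A receptor. It was at 94.3, 161 and 86.1 CPM in uninjured cortex, 596, 232 and 142 CPM after injury and 152, 162 and 219.6 CPM in cultures. The injured and uninjured groups overlapped, the rise was 1.51 ± 0.45 (adjusted p = 0.0482 in edgeR's test), and it was lost without any 1 of 7 libraries, with the smallest value, 0.70, without injured replicate 1. It was kept without injured replicate 2 or injured replicate 3. H2-M3, which presents formylated peptides, was at 44.8, 35.5 and 35.3 CPM in uninjured cortex and 121, 129 and 38.6 CPM after injury. Its rise of 1.32 ± 0.36 was lost without any 1 of 7 libraries (adjusted p up to 0.148, without injured replicate 1), the exceptions being injured replicate 3 and uninjured replicate 1.

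H2-T22 and H2-T10, ligands of some gamma-delta T cells, rose after injury and were higher in cultures than in uninjured cortex. H2-T22 was at 17.5, 13.3 and 15.1 CPM in uninjured cortex, 90.4, 50.3 and 26.3 CPM in injured cortex and 28.8, 48.1 and 51.02 CPM in cultures. Both other groups lay wholly above uninjured cortex (1.86 ± 0.38 and 1.48 ± 0.38). H2-T10 was far lower, with CPM of 0.718, 0.360 and 0.427, 5.76, 2.20 and 1.50 and 0.983, 1.61 and 1.80 in the 3 groups in that order, and rose by 2.64 ± 0.60 after injury, which was lost when injured replicate 1 or uninjured replicates 2 or 3 were dropped singly (adjusted p from 0.0577 to 0.0983). In cultures it was 1.54 ± 0.60 higher than in uninjured cortex, a call lost when replicates 2 or 3 of the cultures or of uninjured cortex were dropped singly (adjusted p from 0.104 to 0.132). H2-T-ps, an annotated pseudogene, had counts of 4, 12 and 5 in uninjured cortex, 175, 54 and 52 in injured cortex and 64, 59 and 66 in cultures. It was higher than uninjured cortex by 3.54 ± 0.63 in injured cortex and by 3.50 ± 0.63 in cultures. H2-T22 and H2-T10 have 8.86% and 7.06% of their 100-base windows in common with other genes, most often each other, so reads could have been split between them.

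Genes of the H2-Q group, which includes those of the Qa-2 antigen, were lower in cultures than in injured cortex in 5 of 5 tested. Over all genes 30.1% were lower in this comparison. H2-Q7, a Qa-2 gene, was at 1.16, 0.855 and 0.427 CPM in uninjured cortex, 23.6, 8.90 and 3.78 CPM in injured cortex and 1.23, 0.690 and 1.25 CPM in cultures. It rose by 3.87 ± 0.65 and was not called between cultures and uninjured cortex (0.35 ± 0.66). H2-Q5 rose by 2.65 ± 0.52, from 4.53, 2.56 and 1.34 CPM to 27.6, 17.2 and 8.34 CPM, and was at 1.84, 0.747 and 1.41 CPM in cultures. H2-Q10 rose by 3.46 ± 0.62, with counts of 12, 6 and 10 in uninjured and 183, 114 and 71 in injured cortex. With 3 counts in all cultures, the CPM of H2-Q10 was 81.8-fold higher in injured cortex than in cultures (95% counting interval 27.8 to 398), and its fitted difference from uninjured cortex of -2.85 ± 0.88 lost its call without culture replicate 1 (adjusted p = 0.0548). H2-Q4 (1.12 ± 0.56) and H2-Q6 (1.84 ± 0.94) were not called after injury; H2-Q6 was lower in cultures than in injured cortex by -2.74 ± 1.05 and H2-Q4 by -2.79 ± 0.62. The H2-Q6 call was lost without any 1 of 6 libraries (adjusted p from 0.0613 to 0.215), all but injured replicate 3, uninjured replicate 1 and uninjured replicate 3. H2-Q4 was lower in cultures than in uninjured cortex by -1.68 ± 0.62, lost without culture replicates 1, 2 or 3 or uninjured replicates 2 or 3 (adjusted p from 0.0583 to 0.143). H2-Q5, H2-Q7, H2-Q6 and H2-Q10 share 14.0%, 12%, 10.8% and 8.01% of their windows with other genes. The values of single genes are therefore uncertain, that of H2-Q10 included.

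H2-K2, an H2-K relative, was not called after injury (0.66 ± 0.35) and was far lower in cultures. It was at 77.3, 38.7 and 29.4 CPM in uninjured cortex, 53.03, 113 and 64.1 CPM in injured cortex and 2.03, 2.47 and 2.50 CPM in cultures. The cultures lay below both tissues by -5.04 ± 0.43 and -4.37 ± 0.42, the latter opposite in sign to the H2-D1 difference. H2-T24 had levels of 12.8, 12.01 and 10.3 CPM in uninjured cortex, 41.3, 23.7 and 13.2 CPM in injured cortex and 3.87, 5.69 and 6.73 CPM in cultures. Its rise was not called (1.15 ± 0.37, adjusted p = 0.0611 in edgeR's test), though every injured library was above every uninjured one, and it was lower in cultures than in injured cortex (-2.26 ± 0.38). Its difference from uninjured cortex of -1.11 ± 0.38 was lost when replicates 1 or 2 of the cultures or of uninjured cortex were dropped singly (adjusted p from 0.0504 to 0.0942).

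The H2-M genes, of which H2-M1, H2-M9 and the H2-M10 genes are known from vomeronasal neurons, were sparse in the tissues, except H2-M3. H2-M2 had counts of 6, 4 and 0 in uninjured, 9, 30 and 10 in injured cortex and 32, 58 and 59 in cultures. It was the only one of the 35 genes higher in cultures than in injured cortex (2.10 ± 0.74, adjusted p = 0.0317 in edgeR's test), and the call was lost without culture replicate 2 (0.0774), culture replicate 3 (0.115), injured replicate 1 (0.1) or injured replicate 3 (0.0711). Against uninjured cortex H2-M2 was 4.19 ± 0.86 higher. H2-M1, too sparse to test, had 35 counts over the 3 cultures and 0 in both tissues, so it was at least 17.5-fold higher in cultures than in injured cortex and at least 14.2-fold higher than in uninjured cortex, taking 3 counts over the group as the floor. H2-M9 had 13 counts in cultures, 1 in injured cortex and 0 in uninjured cortex. H2-Q1, also untested, had 38 counts in injured cortex, 2 in uninjured cortex and 12 in cultures.

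Of the 3 loading genes of the endoplasmic reticulum, Tap1 and Tap2 rose after injury and Tapbp was not called. Tap1 and Tap2 encode the 2 chains of the peptide transporter, and Tapbp encodes tapasin, which links it to class I. Tap1 was at 10.3, 13.7 and 15.98 CPM in uninjured cortex, 98.7, 48.8 and 38.02 CPM in injured cortex and 14.2, 17.3 and 16.9 CPM in cultures. It rose by 2.21 ± 0.33 after injury (adjusted p = 0.0011 in edgeR's test), without overlap, and was lower in cultures than in injured cortex by -1.94 ± 0.33. Tap2 was at 26.5, 20.8 and 19.9 CPM in uninjured cortex and 52.8, 36.8 and 28.4 CPM after injury. Its rise of 0.81 ± 0.24 was lost without any 1 of 7 libraries, all but injured replicate 3 and uninjured replicate 1 (adjusted p up to 0.277, without injured replicate 1). Its difference between cultures and injured cortex of -0.65 ± 0.24 was lost without any 1 of 6 libraries (adjusted p from 0.0561 to 0.224), all but injured replicate 3, uninjured replicate 1 and uninjured replicate 3. Tapbp was not called in any comparison (0.78 ± 0.27 after injury, adjusted p = 0.0781 in edgeR's test). The shares over all genes were 8.99% higher after injury and 30.1% lower in cultures than in injured cortex.

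The immunoproteasome subunits rose after injury. Psmb8, Psmb9 and Psmb10 replace Psmb5, Psmb6 and Psmb7 in the proteolytic core. Psmb8 was at 131, 96.5 and 126 CPM in uninjured cortex, 483, 378 and 162 CPM in injured cortex and 144, 232 and 228 CPM in cultures, a rise of 1.53 ± 0.36 (adjusted p = 0.0156 in edgeR's test). Psmb9 was at 46.7, 40.98 and 39.1, 205, 115 and 51.7 and 22.5, 31.05 and 28.95 CPM in the same order, a rise of 1.55 ± 0.38. For both genes all injured libraries lay above the uninjured ones, and both calls were lost without injured replicate 1 (adjusted p of 0.0953 and 0.116), uninjured replicate 2 (0.0828 and 0.0822) or uninjured replicate 3 (0.0508 and 0.0776). Psmb10 was at 85.4, 71.5 and 83.5 CPM in uninjured cortex and 235, 155 and 95.6 CPM after injury, and its rise of 1.01 ± 0.30 was lost without any 1 library other than injured replicate 3 (adjusted p up to 0.26). In cultures Psmb9 (-2.17 ± 0.39) and Psmb10 (-1.23 ± 0.30) were lower than in injured cortex, and 0 of the 3 genes was called against uninjured cortex (1 higher, Psmb8, at an unadjusted p under 0.05). The constitutive proteasome list, 8 genes, had 0 calls after injury (2 higher at an unadjusted p under 0.05) and 8 of 8 higher in cultures than in uninjured cortex, such as Psmb5 (1.52 ± 0.24). Over all genes 11.9% were called after injury and 27.5% were higher in cultures than in uninjured cortex. The counts of the 3 immunoproteasome subunits over their 3 constitutive counterparts were 0.441, 0.352 and 0.369 in uninjured cortex, 1.12, 0.688 and 0.551 in injured cortex and 0.186, 0.218 and 0.205 in cultures. The 3 groups did not overlap, and the log2 ratio differed by 0.96 after injury, by -1.89 for cultures over injured cortex and by -0.93 for cultures over uninjured cortex (exact two-sided permutation p = 0.1 each, the smallest that 3 against 3 allows).

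Class II and class I were compared inside each library as the summed counts of the 11 class II genes over those of the 33 class I genes, whatever their level. The ratio was 0.179, 0.224 and 0.384 in uninjured cortex, 0.878, 0.782 and 0.955 in injured cortex, and 0.0277, 0.0325 and 0.0349 in cultures. Injured replicate 3, lowest for most of the genes, had the highest ratio of its group, and no groups overlapped. The log2 ratio was higher by 1.80 after injury, and differed by -4.78 for cultures over injured cortex and by -2.98 for cultures over uninjured cortex (exact two-sided permutation p = 0.1 each). Of 10 class II genes tested 6 rose after injury, 10 were lower in cultures than in injured cortex and 9 lower than in uninjured cortex. Of 16 class I genes tested 10 rose after injury, 8 were lower and 1 higher in cultures than in injured cortex, and 4 were lower and 5 higher in cultures than in uninjured cortex. Over all genes 8.99% rose after injury, 30.1% were lower and 20% higher in cultures than in injured cortex, and 33.1% were lower and 27.5% higher than in uninjured cortex, so the class I counts against uninjured cortex are near those of all genes.

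**Figure D4:**
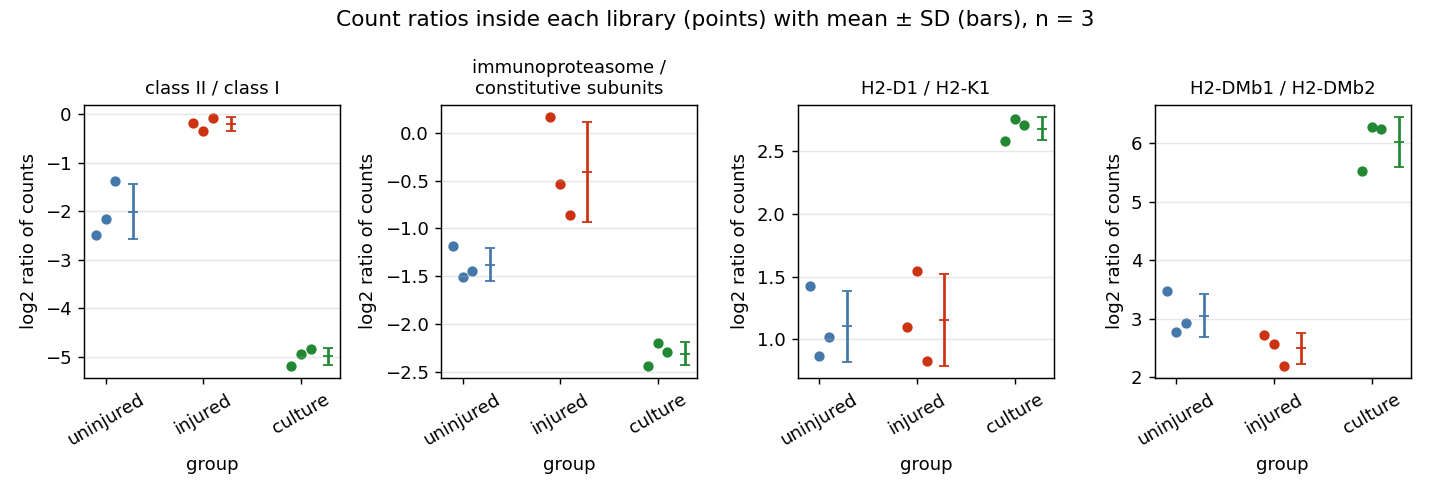
Log2 count ratios inside each library (vertical axes) for uninjured cortex, injured cortex and cultures, with points for single libraries and bars for mean ± SD, n = 3. The class II to class I and the immunoproteasome ratios are lowest in cultures, and the H2-D1 to H2-K1 and H2-DMb1 to H2-DMb2 ratios highest.

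Markers of several other cell types moved with class II. Dendritic cell markers summed to 41.3, 48.4 and 70.8 CPM in uninjured cortex, 423, 245 and 101 CPM in injured cortex and 21.98, 19.8 and 23.4 CPM in cultures, and 4 of 8 rose after injury. Among these Flt3, the receptor that dendritic cell precursors depend on, rose by 3.73 ± 0.52, from 1.49, 1.80 and 2.44 CPM to 45.7, 17.3 and 13.4 CPM, and was at 0, 0.172 and 0.0783 CPM in cultures. Ccr7, the receptor of migrating dendritic cells, rose by 5.21 ± 0.61, and Zbtb46, a transcription factor of dendritic cells, was not called (0.57 ± 0.35, adjusted p = 0.324 in edgeR's test). Xcr1, the chemokine receptor of cross-presenting dendritic cells, was at 0 in the cultures. Monocyte markers summed to 22.3, 42.9 and 38.1 CPM in uninjured cortex, 2465, 1035 and 296 CPM in injured cortex and 16.1, 16.2 and 15.6 CPM in cultures. Of these markers 6 of 6 rose, where 8.99% of all genes did. Within injured cortex the dendritic cell and monocyte sums had the order of the class II sums, which were 12666, 8161 and 3655 CPM. The sums of class I genes and of T and natural killer cell, neutrophil, pan-leukocyte and oligodendrocyte markers had the same order. Those of B cell, microglial and astrocyte markers did not. The order was therefore not particular to dendritic cells and monocytes.

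Of 9 T and natural killer cell markers 9 rose after injury, with sums of 8.51 to 24.3 CPM in uninjured, 69.6 to 243 CPM in injured cortex and 10.96 to 18.2 CPM in cultures. Microglial markers were called in 0 of 10 cases after injury by edgeR (2 lower at an unadjusted p under 0.05) and were lower in cultures in 10 of 10, with sums of 10159 to 16544, 6427 to 18808 and 1421 to 2219.6 CPM. The pan-leukocyte markers summed to 1197 to 1879 CPM in uninjured cortex, 1585 to 3575 CPM in injured cortex and 1335 to 1705 CPM in cultures. Of these 3 markers 2 rose after injury and 2 were lower in cultures than in injured cortex. Against uninjured cortex 1 was higher in cultures and 0 lower. Over all genes 8.99% rose after injury and 30.1% were lower in cultures than in injured cortex. Class II counts over those of the pan-leukocyte markers were 0.352, 0.403 and 0.687 in uninjured cortex, 3.54, 2.35 and 2.31 in injured cortex, and 0.0915, 0.167 and 0.189 in cultures. This ratio, chosen after its values were seen, was 2.54 higher on the log2 scale after injury and differed by -1.69 between cultures and uninjured cortex (exact two-sided permutation p = 0.1 each).

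Further marker lists differed between the groups. Neutrophil markers summed to 175 to 221 CPM in uninjured cortex, 359 to 505 CPM after injury and 30.8 to 42.6 CPM in cultures, and 4 of 7 rose after injury, Cxcr2 by 5.01 ± 0.57, while 7 of 7 were lower in cultures than in injured cortex. Fibroblast markers summed to 28.9 to 39.4, 47.3 to 143 and 214 to 529.9 CPM in the same order, and 5 of 6 were higher in cultures than in uninjured cortex, such as the collagen gene Col3a1 (6.49 ± 0.82). Mural cell markers summed to 327 to 812, 185 to 260.0 and 3252 to 3767 CPM, yet only 2 of 6 were higher in cultures than in uninjured cortex, the smooth muscle actin gene Acta2 (5.54 ± 0.54) and Cspg4, and 3 were lower, such as Kcnj8 (-6.15 ± 0.28). Border macrophage markers summed to 41.4 to 65.9, 53.9 to 72.1 and 280.2 to 467 CPM, with 3 of 6 higher in cultures than in uninjured cortex, such as Pf4 (3.81 ± 0.36), and 3 lower. Oligodendrocyte markers summed to 17497 to 31035, 11051 to 15866 and 363 to 733 CPM, and 6 of 6 were lower in cultures than in both tissues. Over all genes 8.99% rose after injury and 30.1% were lower in cultures than in injured cortex. Against uninjured cortex 27.5% of all genes were higher and 33.1% lower in cultures. What part each cell type had in the class I and class II results was not tested.

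**Figure D5:**
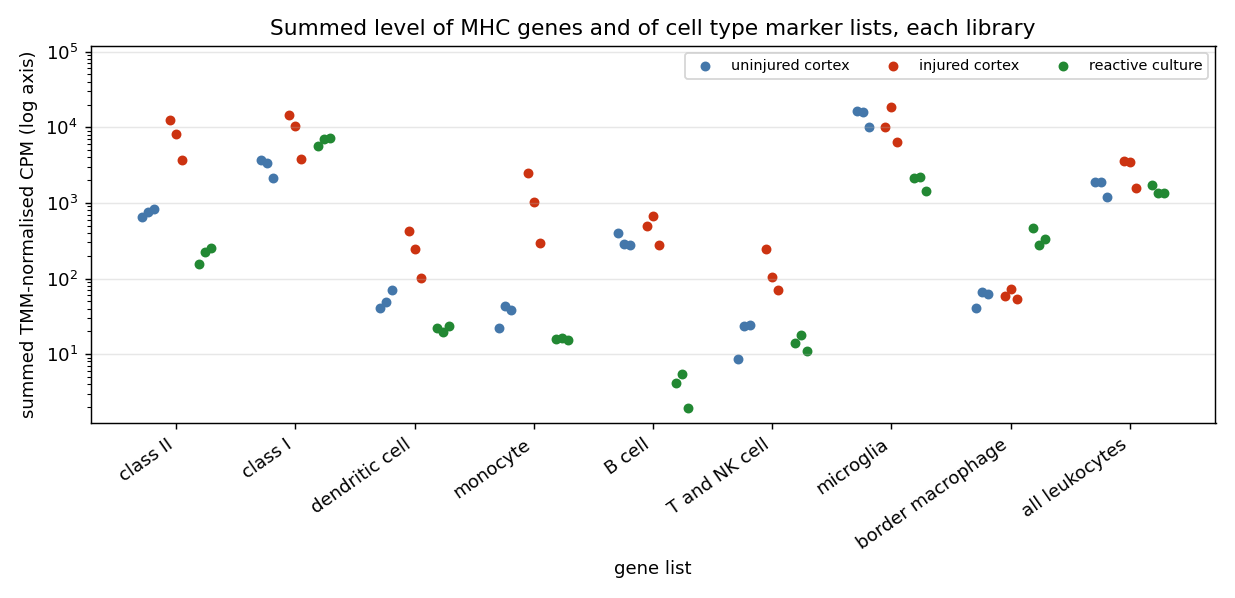
Summed TMM-normalised CPM (vertical axis, log scale) of class II and class I genes and of 7 lists of cell type markers in each library, with blue points for uninjured cortex, red for injured cortex and green for cultures. The red points lie wholly above the blue ones for class II, class I, dendritic cell, monocyte and T and natural killer cell genes, and the microglial and B cell points overlap.

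Genes of the surrounding pathway were counted in lists. Of 11 transcription factors of MHC genes 2 rose after injury, among them Irf8 (0.72 ± 0.21, adjusted p = 0.0435 in edgeR's test), and 0 fell (4 higher and 1 lower at an unadjusted p under 0.05). Irf1, an activator of class I genes, differed by 1.10 ± 0.34 (adjusted p = 0.057) and was lower in cultures than in injured (-2.57 ± 0.36) and uninjured cortex (-1.47 ± 0.35). Rfxank, a subunit of the RFX complex on the X box, was lower in cultures than in injured (-1.09 ± 0.21) and uninjured cortex (-1.56 ± 0.22), and Rfx5 lower than in injured cortex (-1.02 ± 0.40, adjusted p = 0.0486). Rfxap, Creb1, Nfyb and Nfyc were not called in any comparison. In all, 6 of 11 were lower and 0 higher in cultures than in injured cortex, and 2 lower and 1 higher (Nfya) than in uninjured cortex. Over all genes 8.99% rose after injury, and 30.1% were lower and 20% higher in cultures than in injured cortex. Against uninjured cortex 33.1% of all genes were lower and 27.5% higher in cultures, above the shares of these factors.

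Interferon-gamma, the main inducer of both transactivators, was itself sparse. Ifng had counts of 6, 16 and 6 in uninjured cortex, 130, 62 and 47 in injured cortex and 0, 1 and 0 in cultures. It rose by 2.91 ± 0.63 after injury (adjusted p = 0.0109 in edgeR's test) and all injured libraries were above the others. Of 8 genes of interferon-gamma signalling 3 rose, where 8.99% of all genes did. The other 2 besides Ifng were the receptor chain Ifngr2 (1.03 ± 0.25) and Il10 (3.94 ± 0.80), a cytokine that lowers class II. In cultures the ligand-binding chain Ifngr1 was lower than in uninjured cortex (-1.69 ± 0.31) and Ifngr2 higher (1.68 ± 0.25).

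Accessory genes moved in several directions. Of 9 genes of class II processing 2 rose after injury, the lysosomal thiol reductase Ifi30 (3.23 ± 0.42) and the protease Ctsl (1.35 ± 0.40). Ctsl, Ctsb, Ctsd and Ifi30 were higher in cultures than in uninjured cortex, with Ctsl at 3.85 ± 0.44 and Ctsb at 3.83 ± 0.54, while Marchf1, which degrades class II, was lower (-1.03 ± 0.26). Ctss, the protease that trims the invariant chain, was not called in any comparison. The proteasome activator genes Psme1 and Psme2 rose by 1.53 ± 0.27 and 1.54 ± 0.29, 2 of the 6 genes of their list. Of 7 further genes of peptide loading 1 rose after injury, the aminopeptidase Erap1 (1.00 ± 0.28), and 5 were higher in cultures than in uninjured cortex, among them the chaperone Calr (1.83 ± 0.35). Over all genes 8.99% rose after injury and 27.5% were higher in cultures than in uninjured cortex.

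Costimulation and class I-like genes completed the lists. Of 9 costimulatory and coinhibitory genes 8 were tested and 4 rose after injury, namely Cd40 (2.96 ± 0.48), Cd274 (2.45 ± 0.43), Tnfsf9 (3.26 ± 0.75) and Pdcd1lg2, which had counts of 99, 33 and 34 in injured and 0 in uninjured cortex. Over all genes 8.99% rose after injury. Cd86, the costimulatory ligand of CD28, was at a difference of 0.58 ± 0.40 (adjusted p = 0.386 in edgeR's test) and was lower in cultures than in both tissues. Cd274, which encodes PD-L1, was higher in cultures than in uninjured cortex by 3.61 ± 0.45 and than in injured cortex by 1.16 ± 0.40, the only gene of this list higher in cultures than in injured cortex. Of 8 class I-like genes outside the H2 names 7 were tested, and 5 were higher in cultures than in uninjured cortex, where 27.5% of all genes were. They included Raet1d (9.20 ± 0.80) and Ulbp1 (5.51 ± 0.53), ligands of the NKG2D receptor, with Raet1d at mean levels of 0.0871 CPM in uninjured cortex, 2.96 CPM in injured cortex and 55.5 CPM in cultures. The Raet1 genes are close paralogs, so counts of Raet1d alone are uncertain.

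The 20 untested genes were H2-Ea, H2-Pa, H2-Pb, H2-Bl, H2-M1, H2-M10.1 to H2-M10.6, H2-M10.5-ps1, H2-M11, H2-M5, H2-M6-ps, H2-M9, H2-Q1, H2-Q2, H2-Q3 and H2-T3. Of these 13 had at least 1 count, with a highest total of 52, and 7 had 0 counts in every library. H2-Ke6 carries an H2 name by its place in the MHC but encodes a steroid dehydrogenase, and it was not called in any comparison (-0.38 ± 0.55 after injury).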

How the data were processed

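Polyadenylated RNA of 9 libraries was measured, 3 in each of 3 groups. The values are raw read counts per gene as deposited by the authors, and the submitters' processing notes name HISAT2 and GRCm39. How reads were counted is not given in the sources used here (tool, strand setting, annotation), so reads of overlapping antisense genes cannot be told apart. Nothing in the labels says which samples came from separate animals or cultures, beyond the design text's statement that replicates are biological.

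The analysis used edgeR 4.0.16 (R 4.3.3): filterByExpr by group, TMM factors, a quasi-likelihood fit of all 9 libraries (6 residual degrees of freedom) and Benjamini-Hochberg adjustment over 18093 genes, with calls at 0.05. Ratios inside a library were tested by exact permutation (scipy 1.17.1). Counting intervals are at 95% and cover counting error only, as does the floor of 3 counts. Steps were tested on simulated counts. Alternatives included other scalings, DESeq2 1.42.0, voom in limma 3.58.1, other filters and each library left out in turn. Lengths and shared 100-base windows came from GENCODE M21 by Ensembl identifier (55 of 55 matched). Promoters came from RefSeq on GRCm38.p6, where 38 of 55 genes matched by symbol; no coordinates of GRCm39 are given. The IRF and kappaB letters were first searched with 1 more base at the 5′ end and shortened afterwards.

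The genes and the pathway and marker lists were chosen with earlier results of these data known. Every tested member could be named, with up to 4 genes of each list by smallest adjusted p plus Ifng, Irf1, Irf8, Ptprc, Cd79a, Flt3, Zbtb46 and P2ry12; Rfx5, Rfxap, Creb1, Nfya, Nfyb, Nfyc, Ctss, Xcr1 and Cspg4 were named after their values were seen. Some genes of these lists are not reported here by name.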

Additional observations from a re-analysis of the deposited data

How the results depend on the processing

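The 23 genes that rose after injury numbered 15 in a fit of the 2 groups alone and 6 with uninjured replicates 2 and 3 left out together (1 uninjured library, assumed to vary like the others), and 14 to 28 with each library left out in turn. The gene higher in cultures than in injured cortex became 0 with library sizes without the 100 most abundant and mitochondrial genes, 2 without a filter on low counts, 2 without uninjured replicates 2 and 3, and 0 to 2 with each library left out. The 6 higher than uninjured cortex became 10 without a filter and 2 without uninjured replicates 2 and 3. Over all genes the 2145 calls after injury became 1369 in the fit of the 2 groups, 974 and 4102 when injured replicate 1 or 3 was dropped, 1123 and 1284 when uninjured replicate 2 or 3 was dropped, and 462 when both of these were, where the 10954 calls of cultures against uninjured cortex became 6997. Called in every setting were 6 of 23, 19 of 25 and 10 of 20 genes in the 3 comparisons. The cause of these changes was not tested.

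The class II to class I ratio differed by 2.28 after injury and -2.50 between cultures and uninjured cortex without uninjured replicates 2 and 3, and by 2.40, -6.26 and -3.86 in the 3 comparisons with H2-Aa, H2-Ab1, H2-Eb1 and Cd74 over H2-K1, H2-D1 and B2m only. The immunoproteasome ratio between cultures and uninjured cortex became -1.12 without uninjured replicates 2 and 3 and -0.76 for Psmb8 over Psmb5.

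Directions turned for uncalled differences only. After injury these were H2-Ob (-0.011 with library sizes without the 100 most abundant and mitochondrial genes, and -0.048 to 0.31 with each library left out), and, without uninjured replicates 2 and 3, H2-K2 (-0.024) and H2-Ke6 (0.17). Between cultures and injured cortex they were H2-T-ps (0.29 with voom) and, with each library left out, H2-D1 (-0.17 to 0.48), H2-T22 (-0.72 to 0.15) and H2-T-ps (-0.41 to 0.85). Between cultures and uninjured cortex they were, with the library sizes above, H2-DMb1 (-0.29), H2-Q7 (-0.012), Tap1 (-0.14), Tap2 (-0.23) and Tapbp (-0.033), with upper-quartile factors H2-DMb1 (-0.074) and Tap2 (-0.036), with each library left out H2-DMb1 (-0.040 to 0.31) and H2-Q6 (-1.64 to 0.11), and without uninjured replicates 2 and 3 H2-Q7 (-0.15) and Tap2 (-0.091). The H2-D1 to H2-K1 ratio after injury ran from -0.14 to 0.22 with each library left out and became -0.27 without uninjured replicates 2 and 3. Those library sizes moved the median gene by -0.15, -0.25 and -0.40 in the 3 comparisons, and upper-quartile factors by -0.13 and -0.19 in the comparisons with uninjured cortex.

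Libraries of different groups share replicate numbers. Deviations of same-numbered libraries from their group means correlated at -0.088 to 0.353, and those of differently numbered libraries at -0.317 to 0.267. These values cannot tell whether same-numbered libraries were paired or shared a batch. With a replicate block, 6 of the calls or directions changed: H2-DMb1, H2-T23 and Psmb10 after injury, H2-Q6 and H2-T-ps (0.15) between cultures and injured cortex, and H2-Q4 between cultures and uninjured cortex. Genes with fewer than about 50 counts in a group, such as H2-M2, H2-Q6 and H2-T10, are limited by depth.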
